A study of Mus musculus with 10 samples.

Results

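Wnt pathway components and targets were examined in mouse Treg, the Foxp3-dependent regulatory subset of CD4 T cells that keeps immune responses in check. The group comprises 46 genes named by symbol, and each of the 46 was found among the 32767 genes in the tables of the knockout experiment. They were chosen as ligands, receptors, cytoplasmic components, nuclear partners and targets of the pathway, with earlier results of these data known. Treg were sorted by YFP from spleen and lymph nodes on a C57BL/6 background, with 2 RNA sequencing libraries from dKO mice (Foxp3cre/wt Tcf7 fl/fl Lef1 fl/fl) and 2 from WT mice (Foxp3cre/wt Tcf7 wt/wt Lef1 wt/wt). Tcf7, which encodes TCF1, and Lef1 are therefore flanked by loxP sites in dKO mice only, while the Cre and YFP driven from Foxp3 are shared by both groups. Foxp3 is X-linked and the mice were heterozygous for the Cre allele, so the hosts could also hold Treg without Cre. Neither age nor whether the libraries of a group came from separate animals is given in the sources used here. The p-values therefore reflect how far these 4 libraries scatter, and that scatter may be technical.

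In the canonical Wnt pathway, a destruction complex built on Axin and Apc holds the kinases GSK3 and casein kinase 1, which mark beta-catenin for degradation. A Wnt ligand bound to a Frizzled receptor and its co-receptor LRP5 or LRP6 recruits Dishevelled and inactivates that complex. Beta-catenin then enters the nucleus and binds TCF1, LEF1 or their relatives Tcf7l1 and Tcf7l2 on target genes, several of which, such as Axin2, Rnf43 and Znrf3, feed back to restrain the pathway. TCF1 and LEF1 are the members of that transcription factor family best known in T cells.

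Expression was given as FPKM, which divides fragments by transcript length and by a measure of library size, so levels of different genes can be set side by side. Which measure of library size was used is not given in the sources used here. The Treg marker Foxp3 had 126 and 114 FPKM in the dKO libraries and 120 and 106 FPKM in the WT libraries. Of the other Treg markers, Ikzf2 (0.543 times the WT mean), Izumo1r (0.559 times) and Nrp1 (0.735 times) were lower in both dKO libraries than in both WT libraries and Il2ra (1.26 times) higher, while Ctla4 overlapped, all without passing the threshold used below. The 6 Treg markers summed to 710 and 887 FPKM in dKO, against 1064 and 973 FPKM in WT. Cd4 had 187 and 264 FPKM in dKO, against 384 and 411 FPKM in WT (limma adjusted p = 0.136), whereas the sum of the 5 T cell markers, Cd4 included, overlapped between the groups. The part of these marker differences in the values of the Wnt genes was not tested. The deleted gene Lef1 had 71.6 and 62.8 FPKM in the dKO libraries, against 160 and 167 FPKM in the WT libraries. Tcf7 had 316 and 272 FPKM in dKO and 456 and 501 FPKM in WT. Which exons are removed is not given in the sources used here, so how much of these gene-level values comes from exons that stay was not tested. Of the markers of other cells, 8 myeloid genes summed to 4.24 and 79.8 FPKM in dKO replicates 1 and 2 and to 7.56 and 2.45 FPKM in the WT libraries, so dKO replicate 2 stood apart. The B cell list (6 genes) summed to 263 to 322 FPKM, of which Ighm had 263 and 238 FPKM in dKO and 306 and 274 FPKM in WT. Cd79b of that list had 22.5 and 23.3 FPKM in dKO, against 14.1 and 14.6 FPKM in WT (log2 fold change 0.64, limma adjusted p = 0.0619), and the other 4 genes stayed below 1 FPKM. The sum of the list for CD8 T and NK cells was 32.8 to 51.0 FPKM. Most of it was Nkg7 (15.9 to 31.8 FPKM) and Cd8b1 (14.1 to 16.6 FPKM), while Cd8a had at most 0.488 FPKM. The plasmacytoid dendritic list summed to 79.5 to 95.9 FPKM, mostly Bst2 (61.3 to 75.8 FPKM). The list for stroma and endothelium summed to 62.7 to 76.9 FPKM, mostly Pecam1 (57.9 to 71.2 FPKM). The erythroid list summed to 0.133 and 2.94 FPKM in dKO and to 0.531 and 0 FPKM in WT. In bulk RNA, fewer cells of a type and less RNA per cell cannot be told apart. Relative depth was estimated from the most common ratio between a library and the first WT replicate among genes under 0.3 FPKM in both. Relative to that replicate, it was 67.6% and 71.4% for dKO replicates 1 and 2 and 72.2% for WT replicate 2.

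TCF and LEF proteins bind DNA at sequences with the core CTTTG, and the binding sites of a Wnt target commonly extend it by AT, by AA, by TT or by TA at its end. RefSeq promoter windows (GRCm38.p6) were matched by symbol for 25 of the 46 genes, in 33 windows, and the 250 bases before each start were searched for these letters on both strands. The core, which the longer motifs contain, was in 17 of the 33 windows, against 48.6% of all 32851 RefSeq windows of the same length. At least 1 of the 4 longer motifs was in 4 windows, those of Sp5, Fzd7, Gsk3a and Tcf7l2, against 14.8% of all windows. The windows of 3 genes are shown, with the core on either strand (CTTTG or CAAAG) in capitals: Sp5, a target gene listed at 0 FPKM here whose window holds the most core matches of the 33 (4), Wls, the gene with the lowest adjusted p-value of the group, and Axin2, the feedback target. The windows are chr2:70474673-70474922 for Sp5, chr3:159839400-159839649 for Wls and chr11:108920099-108920348 for Axin2, all on the plus strand and read 5′ to 3′.
Sp5: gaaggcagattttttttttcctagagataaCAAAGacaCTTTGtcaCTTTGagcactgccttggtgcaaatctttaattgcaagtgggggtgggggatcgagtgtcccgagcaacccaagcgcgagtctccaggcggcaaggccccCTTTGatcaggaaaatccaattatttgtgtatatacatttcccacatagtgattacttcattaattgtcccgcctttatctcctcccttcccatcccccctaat
Wls: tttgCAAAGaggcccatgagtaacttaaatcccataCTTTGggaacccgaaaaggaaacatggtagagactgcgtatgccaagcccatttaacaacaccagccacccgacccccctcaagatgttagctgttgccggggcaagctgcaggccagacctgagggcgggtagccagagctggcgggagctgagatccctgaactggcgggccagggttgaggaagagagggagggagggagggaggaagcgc
Axin2: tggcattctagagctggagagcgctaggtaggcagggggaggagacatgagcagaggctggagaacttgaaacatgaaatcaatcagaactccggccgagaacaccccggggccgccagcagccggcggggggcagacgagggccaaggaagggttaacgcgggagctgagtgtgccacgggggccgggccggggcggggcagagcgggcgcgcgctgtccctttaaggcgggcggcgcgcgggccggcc
The Sp5 window holds CTTTGAT and CTTTGTT, with cores that begin 220, 212, 204 and 104 bases before the start. Wls has cores 246 and 214 bases before its start and neither of them extends to a longer motif. The Axin2 window holds no core, which says nothing of sites elsewhere in the gene.

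Of the 46 genes, 27 reached 1 FPKM in at least 2 of the 4 libraries and were tested, 1 (Ctnnbip1, an inhibitor of beta-catenin) did so in a single library, 12 had values above 0 that stayed below 1 FPKM, and 6 were listed at 0 in all 4 libraries. The genes at 0 were Fzd1, Fzd2 and Fzd8, the stem cell receptor gene Lgr5, the Wnt-inactivating enzyme gene Notum and the target gene Sp5. No tested gene passed an adjusted p of 0.05 in the dKO against WT comparison (limma with Benjamini-Hochberg adjustment over 10710 genes), where 0.700% of all genes tested passed. At an unadjusted p under 0.05 there were 5 of the 27, namely Wls, Lrp5, Csnk1d, Rnf43 and Axin2, against 17.3% of all genes. The 27 had a median log2 fold change of -0.017, with 10 positive and 17 negative, while all genes tested had a median of 0.013. Beyond 0.5 on the log2 scale lay 3 of the 27 (Rnf43, Wls and Lrp5), or 11.1%, against 8.42% of all genes. Fold changes are on the log2(FPKM + 1) scale, which understates those of weakly expressed genes.

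**Figure D1:**
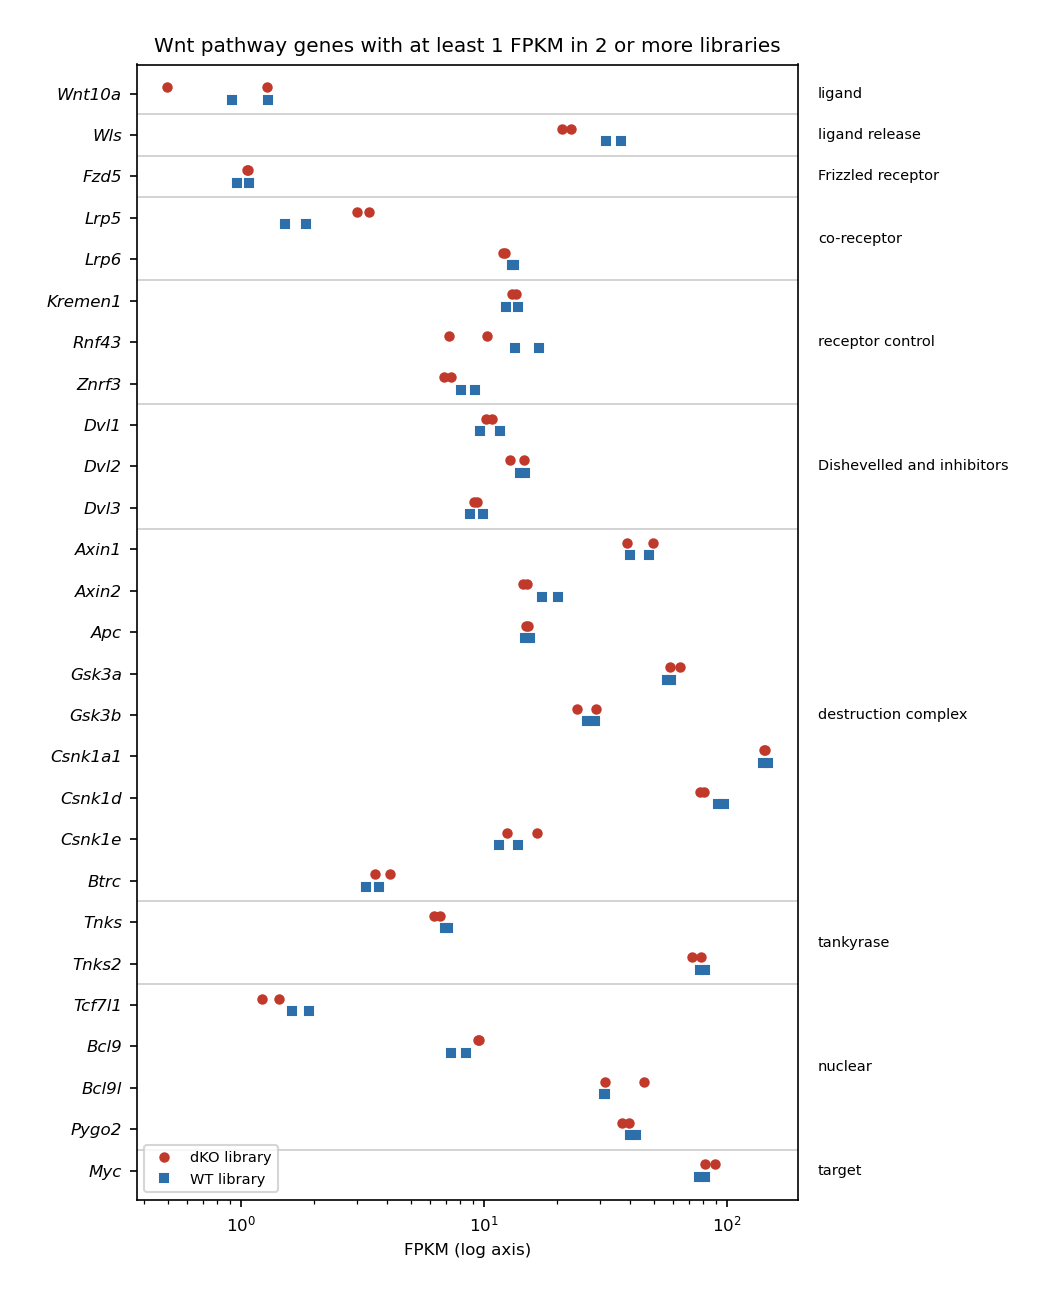
FPKM (log axis) of the 27 tested genes in each dKO library (red circles, upper of each pair) and each WT library (blue squares), grouped by role. Levels ran from 0.495 FPKM (Wnt10a in dKO replicate 1) to 148 FPKM (Csnk1a1 in WT replicate 1), and both groups are without overlap for 13 of the 27 genes.

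The ligand side was sparsely expressed. Wnt10a, 1 of the 3 ligand genes, had 0.495 and 1.28 FPKM in the dKO libraries and 1.29 and 0.917 FPKM in the WT libraries, so the groups overlapped and the libraries of each group differed widely. Wnt10b stayed between 0.0382 and 0.174 FPKM, and Wnt2b was above 0 in WT replicate 1 alone, at 0.0470 FPKM. Porcn, the acyltransferase that attaches the lipid without which Wnt proteins are not secreted, was listed at 0 in 3 libraries and at 0.0342 FPKM in dKO replicate 1.

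Wls, the carrier that takes lipid-bearing Wnt proteins to the cell surface, was well expressed. It had 20.9 and 22.9 FPKM in the dKO libraries, against 36.8 and 31.8 FPKM in the WT libraries. Each dKO library lay below each WT library, and the mean was 0.638 times the WT mean. The log2 fold change was -0.62 (SE 0.10, 95% interval -0.89 to -0.35), which missed the threshold (limma adjusted p = 0.0992). On GRCm38 the gene lies on chromosome 3 from 159839672 to 159938664. With each library left out in turn, its log2 fold change ran from -0.73 to -0.52.

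Of the 9 Frizzled receptor genes in the group, Fzd5 alone was tested. It had 1.06 and 1.07 FPKM in the dKO libraries and 1.08 and 0.961 FPKM in the WT libraries, with overlapping groups. Fzd6 stayed between 0.273 and 0.495 FPKM and Fzd7 between 0.0588 and 0.181 FPKM, while Fzd3, Fzd4 and Fzd9 did not exceed 0.0319 FPKM. In sum the 9 genes had 1.54 and 1.52 FPKM in dKO and 1.64 and 1.61 FPKM in WT. Fzd5 made up 68.5% and 70.3% of that sum in dKO and 65.6% and 59.7% in WT. Fzd10, a Frizzled gene outside these 9, had 0.41 and 0.35 FPKM in dKO, against 0.15 and 0.11 FPKM in WT. It was not tested. Its difference ran opposite to that of the sum, so the lower sum in dKO holds for the 9 genes and not for all Frizzled genes.

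The co-receptor genes Lrp5 and Lrp6 differ in abundance in these Treg. Lrp5 had 3.001 and 3.36 FPKM in the dKO libraries, against 1.53 and 1.85 FPKM in the WT libraries. Both dKO libraries lay above both WT libraries, with a mean of 1.88 times the WT mean and a log2 fold change of 0.64 (SE 0.15, 95% interval 0.25 to 1.02), which missed the threshold (limma adjusted p = 0.154). Lrp6, the more abundant co-receptor, had 12.0 and 12.3 FPKM in dKO and 13.1 and 13.3 FPKM in WT (log2 fold change -0.11, SE 0.08, limma adjusted p = 0.527). The summed levels overlapped, with 15.04 and 15.6 FPKM in dKO and 14.6 and 15.2 FPKM in WT. Of that sum Lrp5 made up 19.96% and 21.5% in the dKO libraries and 10.4% and 12.2% in the WT libraries. The proportions did not overlap between the groups, and their difference was not tested.

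Kremen1, which removes LRP6 from the surface together with Dkk proteins, had 13.1 and 13.6 FPKM in the dKO libraries and 12.4 and 13.9 FPKM in the WT libraries, with overlapping groups. Rnf43 and Znrf3, membrane ubiquitin ligases that clear Frizzled receptors and are Wnt targets in other tissues, were both lower in each dKO library than in each WT library. Rnf43 had 10.3 and 7.17 FPKM in dKO, against 16.8 and 13.4 FPKM in WT. Its log2 fold change of -0.74 (SE 0.20, 95% interval -1.25 to -0.22) was the most negative of the 27 genes and missed the threshold (limma adjusted p = 0.195). Znrf3 had 7.34 and 6.87 FPKM in dKO and 8.09 and 9.21 FPKM in WT, a log2 fold change of -0.25 (SE 0.11, limma adjusted p = 0.33). The summed level of both ligase genes was 17.7 and 14.04 FPKM in dKO, against 24.9 and 22.6 FPKM in WT, without overlap. Rnf43 lies on chromosome 11 from 87662722 to 87735539 (GRCm38).

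The Dishevelled genes, whose products relay the receptor signal, overlapped between the groups. Their summed level was 34.6 and 32.3 FPKM in dKO and 33.7 and 35.3 FPKM in WT. Dvl2 was the most abundant of them in each library, with 12.8 to 14.8 FPKM, while Dvl1 (9.67 to 11.7 FPKM) and Dvl3 (8.80 to 9.91 FPKM) overlapped in level. Their log2 fold changes were -0.07 for Dvl2, -0.014 for Dvl1 and -0.016 for Dvl3, all with limma adjusted p-values of 0.759 or more and 95% intervals within 0.5 of 0. Nkd1 and Nkd2, inhibitors that bind Dishevelled, did not exceed 0.0374 FPKM, and Nkd2 was listed at 0 in both dKO libraries.

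The destruction complex is built on the scaffolds Axin1, Axin2 and Apc. Axin2, a feedback target that limits the pathway, had 15.01 and 14.5 FPKM in the dKO libraries, against 17.3 and 20.3 FPKM in the WT libraries. Neither dKO library reached the level of a WT library, with a log2 fold change of -0.33 (SE 0.10, 95% interval -0.60 to -0.06), which missed the threshold (limma adjusted p = 0.230). Axin1, the constitutive scaffold, had 49.6 and 39.0 FPKM in dKO and 47.9 and 39.8 FPKM in WT, and its libraries differed more within a group than between the groups. Axin2 made up 23.2% and 27.02% of the summed Axin level in dKO and 26.5% and 33.7% in WT, with overlap. Apc, the other scaffold, had 15.2 and 14.96 FPKM in dKO and 15.5 and 14.8 FPKM in WT (log2 fold change -0.0070, 95% interval -0.21 to 0.20). On GRCm38, Axin2 lies on chromosome 11 from 108920349 to 108950783.

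Among the kinase genes listed here with the complex, Csnk1d was the only one without overlap between dKO and WT. It had 80.4 and 77.6 FPKM in the dKO libraries, against 97.9 and 92.3 FPKM in the WT libraries. Its log2 fold change was -0.26 (SE 0.07, 95% interval -0.44 to -0.09), which missed the threshold (limma adjusted p = 0.178). Csnk1a1, the casein kinase 1 gene that primes beta-catenin and the most abundant of the 46, had 143 and 142 FPKM in dKO and 148 and 141 FPKM in WT, at the 94.6th percentile of the genes tested. Csnk1e was far lower, with 16.6 and 12.5 FPKM in dKO and 11.5 and 13.8 FPKM in WT. Csnk1d accordingly made up 33.4% of the summed level of the 3 casein kinase 1 genes in both dKO libraries and 38.1% and 37.3% in the WT libraries. Csnk1d lies on chromosome 11 from 120961749 to 120991330 (GRCm38). Floxed Tcf7 is also on chromosome 11 (52252371 to 52283014), as are Rnf43 and Axin2. Floxed Lef1 is on chromosome 3 (131110471 to 131224356), as is Wls, while Lrp5 is on chromosome 19. Znrf3, lower in dKO without overlap, and Kremen1 and Dvl2, whose groups overlapped, are on chromosome 11 too. On chromosome 3 also lie Bcl9, higher in dKO without overlap, and Pygo2, lower without overlap. The part of a shared chromosome in these differences was not tested.

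Gsk3a and Gsk3b encode the kinases that phosphorylate beta-catenin after priming. Gsk3a had 64.4 and 58.4 FPKM in dKO and 56.7 and 58.8 FPKM in WT, and Gsk3b 28.9 and 24.2 FPKM in dKO and 26.7 and 28.7 FPKM in WT. Both pairs overlapped, and Gsk3a was the higher of the pair in every library, at 2.05 to 2.41 times Gsk3b. Btrc, the F-box protein that recognises phosphorylated beta-catenin, had 3.57 and 4.10 FPKM in dKO and 3.29 and 3.71 FPKM in WT, again with overlap. The tankyrases mark Axin for degradation, and Tnks2 exceeded Tnks 10.9 to 12.5 times in every library. Tnks2 had 72.1 and 78.1 FPKM in dKO and 77.8 and 81.2 FPKM in WT. Tnks had 6.58 and 6.24 FPKM in dKO and 7.13 and 6.92 FPKM in WT, without overlap (log2 fold change -0.11, SE 0.10, limma adjusted p = 0.601).

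**Figure D2:**
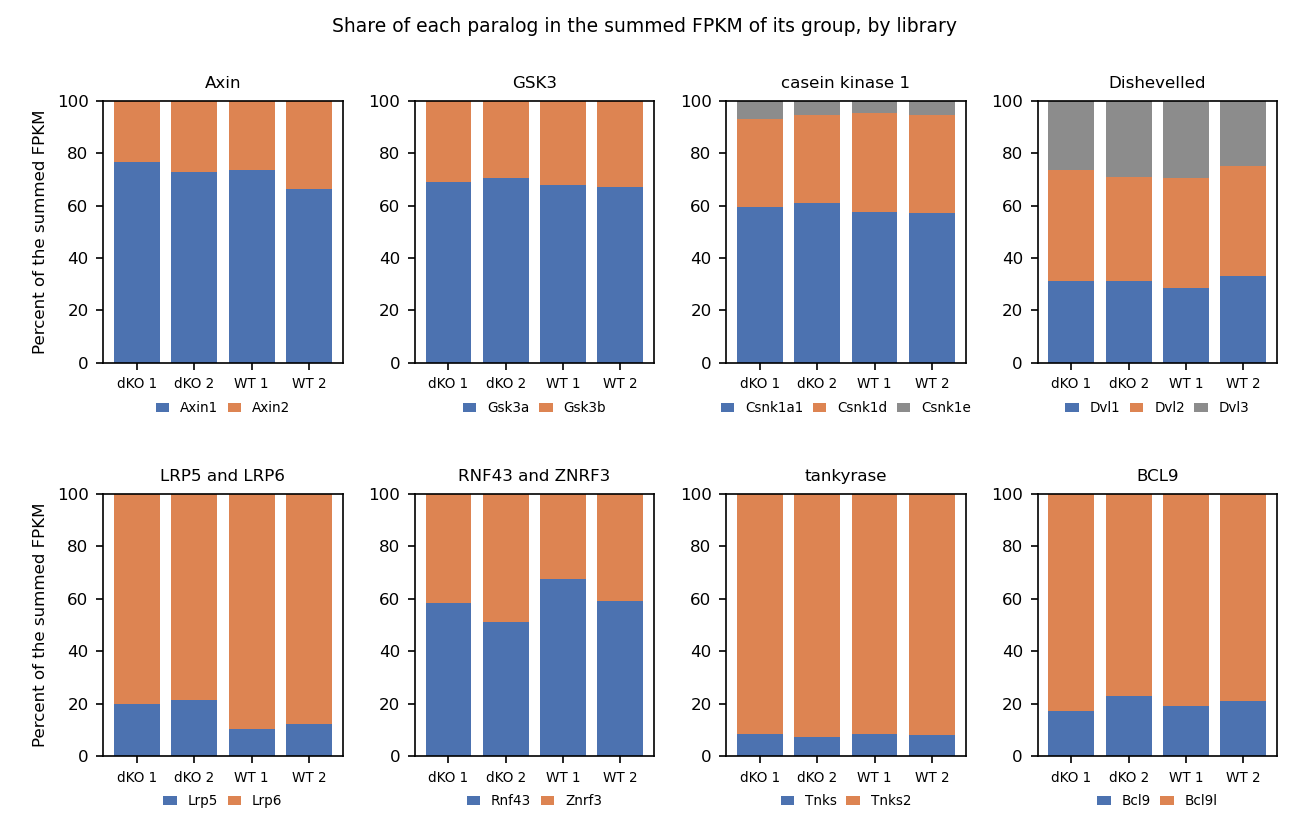
Share of each paralog in the summed FPKM of its group (vertical axis, percent) in the dKO libraries (left bars) and the WT libraries (right bars) for 8 groups. Lrp5 takes 19.96% and 21.5% in dKO and 10.4% and 12.2% in WT, and Csnk1d 33.4% in both dKO libraries and 38.1% and 37.3% in WT, while Tnks2 takes 91.6% to 92.6% of the tankyrase sum in the 4 libraries.

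The nuclear partners lay on both sides of 0. Bcl9 and Bcl9l link beta-catenin to Pygo proteins. Bcl9 had 9.53 and 9.46 FPKM in the dKO libraries, against 7.35 and 8.45 FPKM in the WT libraries (log2 fold change 0.24, SE 0.11, limma adjusted p = 0.333), without overlap. Bcl9l had 45.6 and 31.7 FPKM in dKO and 31.3 and 31.5 FPKM in WT, so its higher mean rested on dKO replicate 1. Pygo2, which reads a methylated histone tail, had 37.1 and 39.5 FPKM in dKO and 39.9 and 42.2 FPKM in WT (limma adjusted p = 0.556). Ctnnbip1 had 0.611 and 1.24 FPKM in dKO and 0.840 and 0.942 FPKM in WT.

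The remaining TCF genes were scarce in both genotypes. Tcf7l1, a family member known mostly as a repressor, had 1.22 and 1.43 FPKM in the dKO libraries, against 1.91 and 1.62 FPKM in the WT libraries, with no overlap and a log2 fold change of -0.25 (SE 0.16, limma adjusted p = 0.487). Tcf7l2 had 0.547 and 0.526 FPKM in dKO and 0.392 and 0.468 FPKM in WT and was not tested. The 4 genes of the family summed to 390 and 336 FPKM in dKO and to 619 and 670 FPKM in WT, and Tcf7l1 and Tcf7l2 each made up at most 0.426% of that sum in any library. In dKO the deleted genes made up most of the sum, with 81.2% and 80.7% from Tcf7 and 18.4% and 18.7% from Lef1. How much of that comes from exons that stay was not tested, so these are shares of gene-level values.

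Among the target genes, Myc, a regulator of growth, was abundant in both groups. It had 89.8 and 81.6 FPKM in the dKO libraries and 81.4 and 76.5 FPKM in the WT libraries. The groups did not overlap by a narrow margin, and the log2 fold change was 0.12 (SE 0.08, 95% interval -0.09 to 0.32, limma adjusted p = 0.514). Ccnd1, which encodes cyclin D1 and is little used by T cells, had 0.109 and 0.656 FPKM in dKO and 0.0516 and 0.0732 FPKM in WT, and was not tested. The highest value was that of dKO replicate 2, the library with 79.8 FPKM of the myeloid list, where Csf1r had 8.51 FPKM and C1qa 15.2 FPKM, against at most 0.258 and 0.766 FPKM in the other 3 libraries. The part of myeloid RNA in the Ccnd1 value was not tested.

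**Figure D3:**
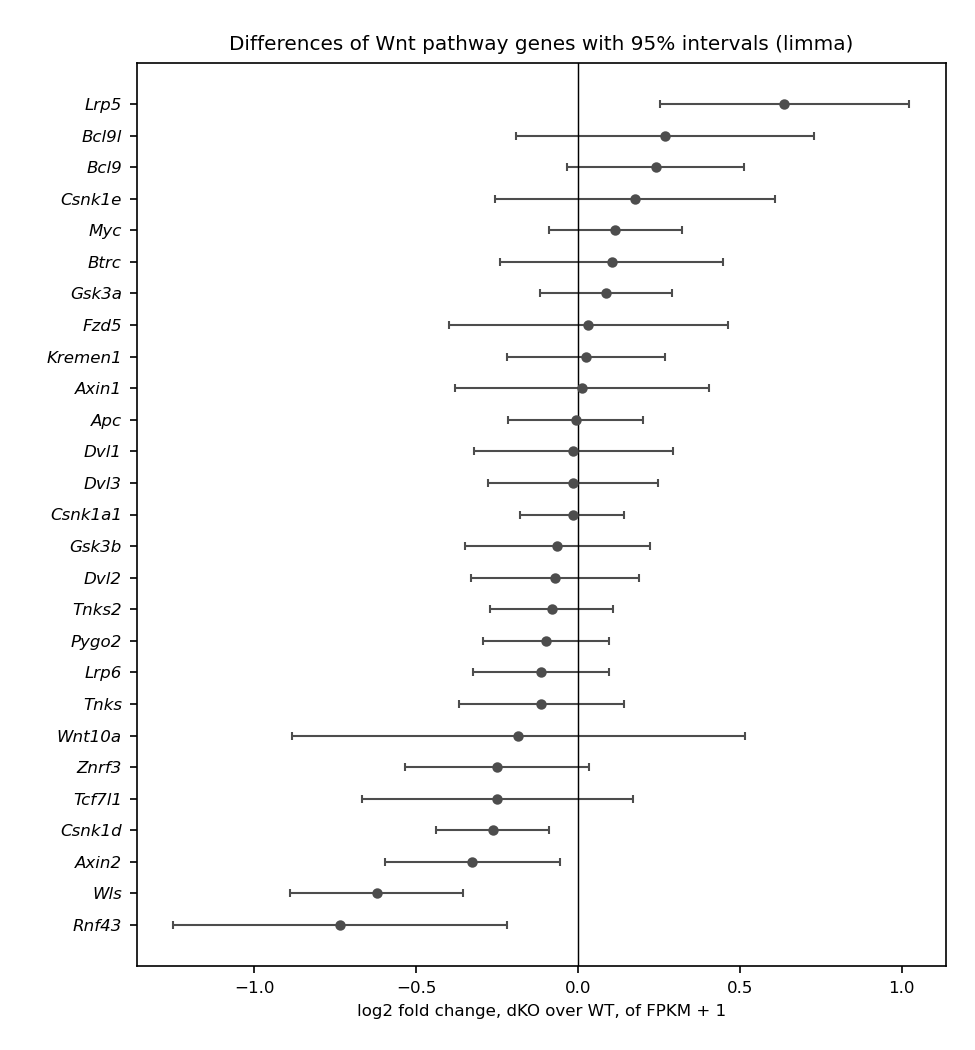
log2 fold change, dKO over WT, of FPKM + 1 for the 27 tested genes (points) with 95% intervals (bars) from limma, ordered by size. Intervals lie above 0 for Lrp5 and below 0 for Wls, Rnf43, Axin2 and Csnk1d before adjustment for multiple tests, and the interval of no other gene leaves out 0.

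Across the 27 genes, both dKO libraries lay on 1 side of both WT libraries for 13, of which 4 were higher (Lrp5, Bcl9, Bcl9l and Myc) and 9 lower (Wls, Rnf43, Axin2, Znrf3, Csnk1d, Tcf7l1, Lrp6, Tnks and Pygo2). The same held for 50.8% of all genes tested, with 26.6% higher and 24.2% lower, so the count is near the background. The 95% interval of the log2 fold change lay within 0.5 of 0 for 17 of the 27, against 6644 of all 10710 genes tested. The median half-width of the intervals was 0.27 for the 27 and 0.276 for all genes tested. These intervals are not adjusted for multiple tests, and the difference of Wls, larger than its half-width, still missed the adjusted threshold. The lowest adjusted p of the group was the 0.0992 of Wls.

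A further 116 genes of the pathway formed a list of ligands, inhibitors, receptors, cytoplasmic and nuclear components, targets and noncanonical genes, of which 56 were tested. Lef1, deleted by design, was the only one to pass (log2 fold change -1.27, SE 0.09, limma adjusted p = 0.0159), against 0.383% of all genes that passed lower in dKO, and none passed higher. That call was lost without WT replicate 1 (limma adjusted p = 0.115), without WT replicate 2 (0.166), with the replicate block (0.0537) and with no filter on low values (0.0975), at log2 fold changes of -1.30 to -1.25. Tcf7 had a log2 fold change of -0.70 (SE 0.10, limma adjusted p = 0.0805), with both dKO libraries below both WT libraries. At an unadjusted p under 0.05 there were 16 of the 56, against 17.3% of all genes, with both deleted genes among the 16, and the list had a median log2 fold change of -0.044, with 23 positive and 33 negative. Groups did not overlap for 33 of the 56, 11 higher and 22 lower in dKO, against 50.8% of all genes. None of the 15 listed secreted or surface inhibitors and none of the 7 further receptors was tested. Among these, the inhibitor Sostdc1 had 0.0262 and 0.123 FPKM in dKO, against 2.79 and 0.792 FPKM in WT. The receptor Ryk had 0.369 and 0.752 FPKM in dKO, against 2.17 and 0.964 FPKM in WT. Both reached 1 FPKM in WT replicate 1 alone, and the receptor Fzd10, given above, was higher in dKO. Of the 21 further ligands Wnt3 alone was tested, with 1.85 and 2.25 FPKM in dKO and 3.86 and 2.63 FPKM in WT (limma adjusted p = 0.316).

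Ctnnb1, which encodes beta-catenin, had 99.7 and 111 FPKM in the dKO libraries and 112 and 114 FPKM in the WT libraries (log2 fold change -0.10, SE 0.08, 95% interval -0.30 to 0.10, limma adjusted p = 0.568). Tiam1, an activator of the GTPase Rac, had 17.4 and 31.9 FPKM in dKO, against 78.0 and 64.2 FPKM in WT, a log2 fold change of -1.54 (SE 0.29) that missed the threshold (limma adjusted p = 0.118). Without dKO replicate 2 it was -1.96 and passed (limma adjusted p = 0.0183), while it missed the threshold without dKO replicate 1 (-1.13, adjusted p = 0.0760), without WT replicate 1 (-1.41, 0.410) and without WT replicate 2 (-1.68, 0.297). The groups were well apart, and the dKO libraries also differed from each other.

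Jun, a subunit of AP-1, had 4.40 and 3.97 FPKM in dKO and 8.24 and 8.48 FPKM in WT (limma adjusted p = 0.0685). Sox4, a transcription factor related in its DNA-binding domain to TCF1, had 8.19 and 10.8 FPKM in dKO and 4.60 and 4.87 FPKM in WT (limma adjusted p = 0.106). Frat1, which binds GSK3 and keeps it from Axin, had 6.08 and 5.92 FPKM in dKO and 3.81 and 3.36 FPKM in WT (log2 fold change 0.61, SE 0.12, limma adjusted p = 0.121). Its paralog Frat2, named after its values were seen, had 12.5 and 12.2 FPKM in dKO and 8.33 and 8.31 FPKM in WT (log2 fold change 0.52, SE 0.09, limma adjusted p = 0.0992). Each Frat gene was higher in both dKO libraries than in both WT libraries. Ankrd6, whose product binds Axin, had 0.376 and 0.635 FPKM in dKO, against 1.75 and 1.42 FPKM in WT. It reached 1 FPKM in the WT libraries alone, so it could enter the test only as lower in dKO. Its test result is therefore not given. The gene lies at the 1.54th percentile of the genes tested, and the counts above by unadjusted p and by lack of overlap include it.

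**Figure D4:**
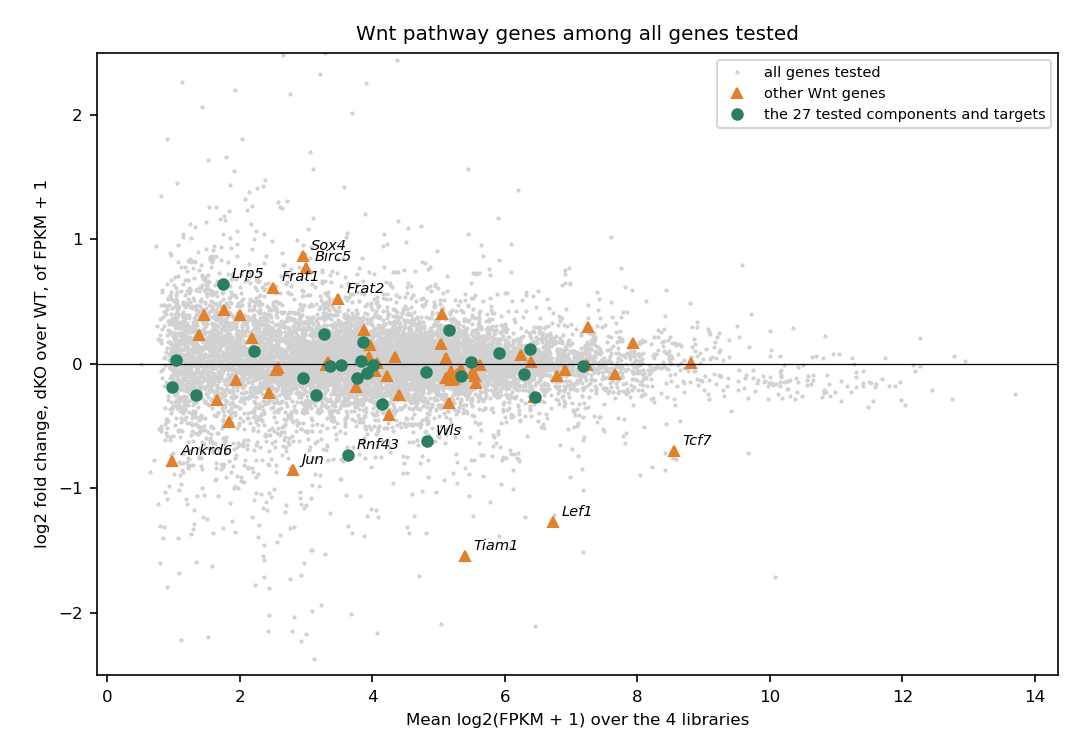
log2 fold change, dKO over WT, of FPKM + 1 (vertical axis) against the mean log2(FPKM + 1) over the 4 libraries (horizontal axis) for all genes tested (grey), the 27 components and targets (green circles) and the 56 other Wnt genes (orange triangles), with names beyond 0.5. The green points stay between -0.74 and 0.64, and 38 of the grey genes lie outside the plotted range of 2.5 in either direction.

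With each library left out in turn, the 5 genes with an unadjusted p under 0.05 kept the direction of their differences, and none of the 26 or 27 genes tested passed the threshold in any of these 4 fits. Axin2 ran from -0.44 to -0.22, Csnk1d from -0.31 to -0.22, Rnf43 from -0.97 to -0.50 and Lrp5 from 0.55 to 0.73 on the log2 scale. The difference of Bcl9l rested on a single library, with a log2 fold change of 0.27 from all 4 libraries and 0.011 without dKO replicate 1.

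**Figure D5:**
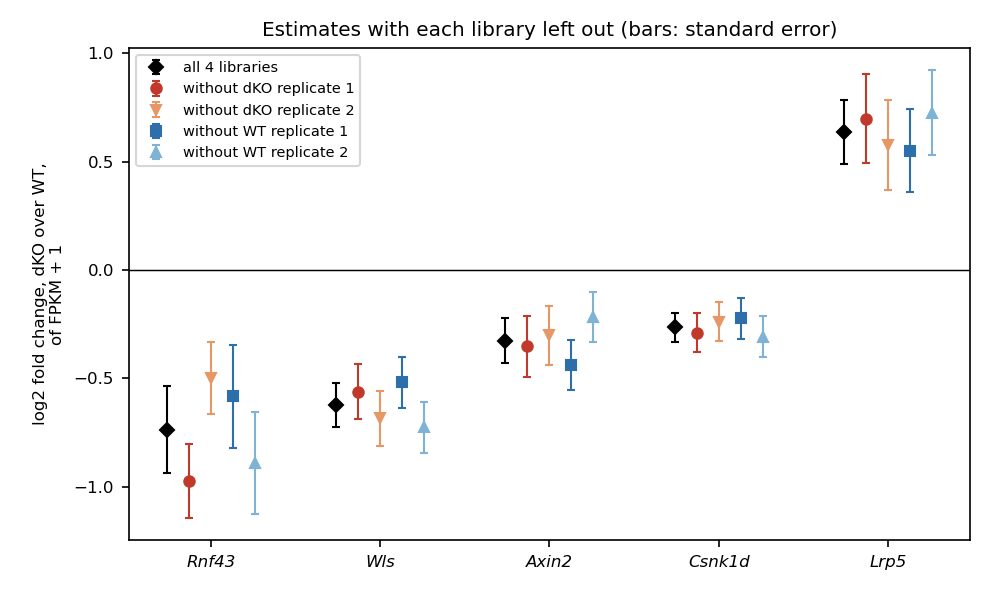
log2 fold change, dKO over WT, of FPKM + 1 for Rnf43, Wls, Axin2, Csnk1d and Lrp5 from all 4 libraries (black) and with each library left out (colours), with standard errors as bars. Lrp5 stays above 0 and the other 4 genes stay below 0 in each fit.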

How the data were processed

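RNA of sorted Treg was sequenced with a TruSeq Stranded mRNA kit, per the labels' protocols. The authors deposited FPKM per gene, 1 table for each library; STAR, Cuffdiff and the GRCm38 build are named per the submitters' processing notes, with no version, annotation or scaling of the libraries given in the sources used here. Absolute depth is unknown; relative depth was read from genes under 0.3 FPKM. The tables of 6 subset libraries were not used, because their gene identifiers and values do not match. A 0 can be a failed estimate, so it is reported as listed at 0.

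The 10710 genes that reached 1 FPKM in 2 or more libraries were tested on log2(FPKM + 1) with limma 3.58.1 in R 4.3.3, with a trended prior variance, 2 residual and 2.85 prior degrees of freedom, two-sided tests and a Benjamini-Hochberg adjusted p of 0.05 as the threshold. The code was tested on simulated data. Values are given for every tested member and, of the other Wnt genes, for those past the threshold, up to 6 by size of change among those with an unadjusted p under 0.05 and no overlap, and Tcf7, Lef1 and Ctnnb1. Outside that rule, values are also given for Wnt3, Frat2 and the untested Sostdc1, Ryk and Fzd10. Members and lists were chosen with earlier results of these data known. Coordinates come from GENCODE vM21 (GRCm38) and promoter sequences from RefSeq (GRCm38.p6). Alternatives covered the pseudocount, filter, scaling, moderation, replicate block and each library left out.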

Additional observations from a re-analysis of the deposited data

How the results depend on the processing

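No member passed the threshold under any alternative. Of all genes, 75 passed (34 higher, 41 lower), against 6 with no filter on low values, 43 without a trend in the prior variance, and 14 to 136 with single libraries left out: 21 without WT replicate 1, 14 without WT replicate 2, 42 without dKO replicate 1 and 136 without dKO replicate 2. Leaving out genes listed at 0 in any library, chosen after seeing the data, gave 117. Among the other Wnt genes, 1 passed, against 0 with no filter (Lef1 adjusted p = 0.0975), 3 without genes listed at 0 (Lef1, Jun and Tcf7) and 0 to 2 with libraries left out. Lef1 missed the threshold without WT replicate 1 (adjusted p = 0.115) and without WT replicate 2 (0.166), at log2 fold changes of -1.30 and -1.25. The replicate numbers share no stated animal or day, and deviations of same-numbered libraries correlated at 0.014; with the replicate block 21 genes, 0 members and 0 other Wnt genes passed (Lef1 adjusted p = 0.0537). The members' median of -0.017 was -0.041 with a mean of at least 5 FPKM, -0.043 with quantile normalization and -0.074 to 0.0019 with libraries left out, and the count of 13 without overlap was 17 to 23 with a library left out (63.0% to 85.2% of the members, against 73.0% to 78.2% of all genes in the same fits). A group of 1 library meets lack of overlap more easily, so these counts cannot be set against the 13. Over all genes the share was 50.8% with all 4 libraries. The cause of the shifts of the median was not tested. Having 2 libraries per group limits all tests.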
